A study of Mus musculus with 27 samples.

Results

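The population gap is the log2 difference in a gene's messenger RNA level between recruited and resident alveolar macrophages on the same day, recruited minus resident. Its change between 2 times after lung injury was measured here as the gap on day 12 minus the gap on day 3, that is (recruited day 12 minus resident day 12) minus (recruited day 3 minus resident day 3). The test covered every gene that passed a filter on low counts, 13599 of the 38124 genes in the table. The 4 groups compared hold 12 of the 27 libraries of the series, and the spread behind each p-value was estimated from all 27. A change above 0 means that recruited cells gained on resident cells, and a change below 0 that they lost ground. Each gene was also read within each population, day 12 against day 3, to see which cells had moved.

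All mice were C57B/6, 8 to 14 weeks old, and no group carried a transgene or a deletion according to the labels. Lipopolysaccharide (LPS), a bacterial cell wall component, was given into the trachea in saline (50 µL), at a dose that the labels write as 20 ng; nothing in the files allows a check of that unit. Macrophages were washed out of the airspaces and sorted by surface markers into resident cells (CD11c+CD11b-) and recruited cells (CD11c-CD11b+), with 3 libraries for each population on day 3 and on day 12. Both days come after LPS, so neither is an untreated state. Untreated resident cells (day 0) and both populations on days 6 and 9 entered the estimate of that spread and are otherwise used below only to place the 2 days. From the 12 libraries alone 1654 genes passed, 1407 of them among the 1853 reported below. No label ties the 3 libraries of a group to different mice. The p-values therefore measure the spread between these samples, which may be technical.

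Resident alveolar macrophages live in the airspaces, clear surfactant and debris, and are kept in their state by the transcription factor PPARγ. After injury, blood monocytes enter the airspaces and become macrophages there, and many of them die as inflammation ends. A comparison of the 2 populations early and late asks how far the incoming cells take on the resident pattern and how far the resident cells return to their own.

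The 12 libraries held 11707563 to 17625541 counts in genes, and 16293 to 17621 genes had at least 1 count. Levels are given as CPM, counts scaled to a common library total, scaled between libraries with the trimmed mean of M values (TMM), for replicates 1, 2 and 3 in that order. Both day 12 libraries numbered 1 stood apart from the other libraries of their group. A chi-square of the counts per degree of freedom was 106 and 114 between recruited replicate 1 and the other two on day 12, against 16.3 between replicates 2 and 3, and 42.7 and 49.8 in resident cells, against 7.23. Recruited replicate 1 of day 3 stood apart by less (42.9 and 43.6, against 29.3). The level of the sort markers' own genes followed the labels on both days: Itgam, which encodes CD11b, was above every resident library in every recruited library, and Itgax, which encodes CD11c, was below.

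Recruited and resident cells became more alike between day 3 and day 12, and most of the movement was on the recruited side. The gap changed in 1853 of 13599 tested genes (13.6%, edgeR quasi-likelihood test, adjusted p under 0.05), with 1004 rises (7.38%) and 849 falls (6.24%). In 1544 of the 1853 genes (83.3%) the gap was smaller in size on day 12 than on day 3. On day 3 the populations differed in 6342 genes (46.6%) and on day 12 in 3713 (27.3%). Across all tested genes the median size of the gap was 0.46 on day 3 and 0.30 on day 12 on the log2 scale, and the gaps of the 2 days correlated across genes with r = 0.76, a description over genes that share the same libraries and are not independent replicates. The gap passed on both days in 2806 genes, in 2706 of them in the same direction and in 100 in the opposite one. Much of the difference between the populations was thus still there on day 12. In bulk samples of sorted cells, fewer cells of a type and less RNA per cell cannot be told apart. Scaling by library size alone shifted the median gap change of all genes from 0.02 to 0.14 and gave 1683 genes, of which 71.5% rose, against 54.2% with TMM. With the libraries of a day and number kept together as a block, 2955 genes passed, 1489 of them converging.

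The 1853 genes fell into 3 classes by the sign and size of the 2 gaps. Converging genes kept the sign of their gap, and it shrank: 932 genes (6.85% of those tested), 622 with the recruited level below the resident level on day 3 and 310 with it above. Their day 12 gap was at the median 28.6% of the day 3 gap, and in 483 of them it no longer passed on day 12. Crossing genes changed sign (838 genes, 6.16%). In 558 of these only the day 3 gap passed, in 142 only the day 12 gap, and in 100 both, so for most of this class the change of sign lies within the error of the day 12 gap. Diverging genes kept their sign, and the gap widened: 83 genes (0.61%). The day 12 gap passed in all 83 and the day 3 gap in 25. For most of this class the kept sign therefore lies within the error of the day 3 gap. Counted over the classes, the gap was larger in size on day 12 in 309 of the 1853 genes, crossing genes among them. These classes are defined from the same libraries as the test and describe its calls. Diverging genes were 206 with the block and 41 to 75 when 1 library was left out. The least were without resident replicate 2 of day 12 (41), and the count was 43 to 51 without any library of resident day 3, resident replicate 3 of day 12, or recruited replicate 2 or 3 of day 3.

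**Figure D1:**
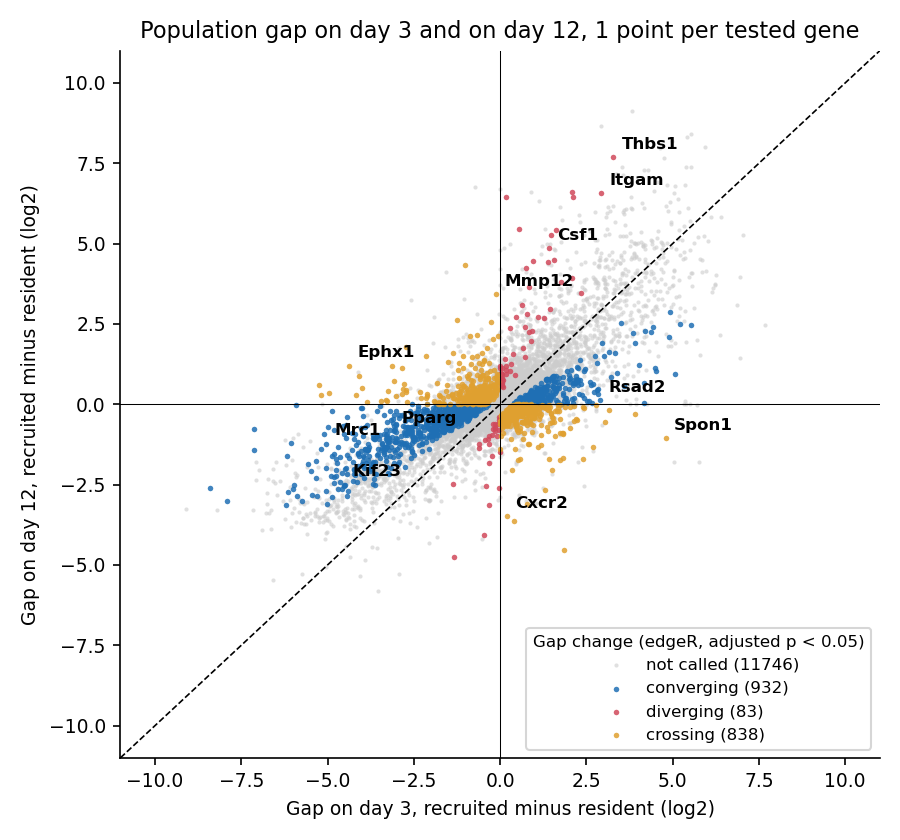
Population gap of each of the 13599 tested genes on day 3 (horizontal axis, log2) and on day 12 (vertical axis, log2), with colour for the class of a called change and labels for genes named in the text. Points on the dashed line have equal gaps, and the 932 converging genes lie between that line and the horizontal axis.

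The libraries of days 6 and 9 are not part of the gap change itself, but they entered the estimate of the spread behind its calls, so the values of those days are a description. In converging genes the median size of the gap was 1.64 on day 3, 0.77 on day 6, 0.56 on day 9 and 0.46 on day 12, so the largest step lay between days 3 and 6. Diverging genes had opened by day 6, with medians of 0.32, 1.28, 1.33 and 1.37. Over all tested genes the medians were 0.46, 0.36, 0.34 and 0.30.

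**Figure D2:**
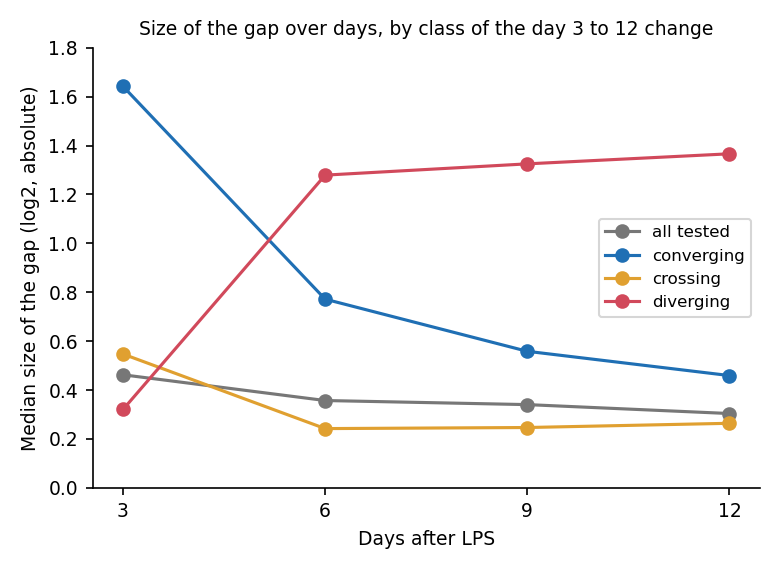
Median size of the population gap (log2, absolute) on days 3, 6, 9 and 12 after LPS for all tested genes and for the 3 classes. The converging line falls from 1.64 to 0.77 between days 3 and 6, and the diverging line rises from 0.32 to 1.28.

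Recruited cells moved in most of these genes. Within recruited cells 5348 genes changed between day 3 and day 12 (39.3%), and within resident cells 3289 (24.2%). Of the 1853 genes with a changed gap, 1066 (57.5%) had moved only in recruited cells, 308 (16.6%) only in resident cells, 414 (22.3%) in both and 65 in neither by these tests. A move that passes in one population and not in the other is not by itself a difference; the gap change is the test of that difference. The recruited move was the larger one in 1452 genes (78.4%), with a median size of 0.87 against 0.36 for the resident move. Where both had moved, 311 genes went the same way, and in 302 of these the recruited cells went further. The other 103 went opposite ways, 62 up in recruited and down in resident cells and 41 the reverse. Without resident replicate 3 of day 3, the genes moved only in resident cells were 148 and those moved in both were 237. Without resident replicate 2 of day 12 they were 191 and 258, and without its replicate 3 they were 185 and 269. The genes moved only in recruited cells were 696 without recruited replicate 2 of day 3.

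**Figure D3:**
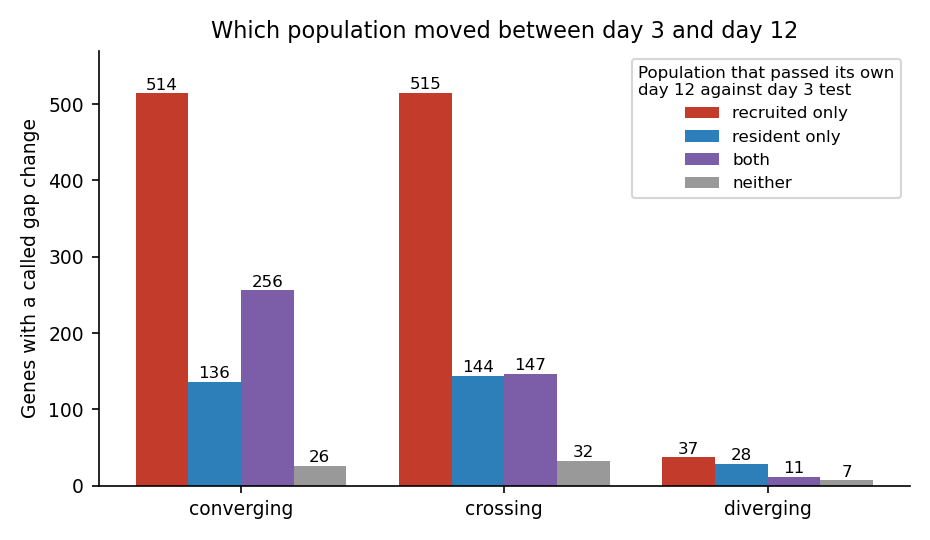
Number of genes with a called gap change by class, split by the population whose own day 12 against day 3 test passed. Recruited-only genes are the tallest bar in each class, with 514, 515 and 37 genes.

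Gene groups moved in different ways. Most genes of resident identity were lower in recruited cells on day 3 and rose in those cells. Most genes of the interferon response and of glycolysis were higher in recruited cells on day 3 and fell, further in recruited than in resident cells. Most genes of DNA replication and mitosis were higher in resident cells on day 3 and fell in those cells. The counts below are read against the 13.6% of all tested genes whose gap changed, or 7.38% for rises and 6.24% for falls. No called member of any list changed sign under the other scalings tried (DESeq2 size factors, library size alone) or in DESeq2 itself.

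**Figure D4:**
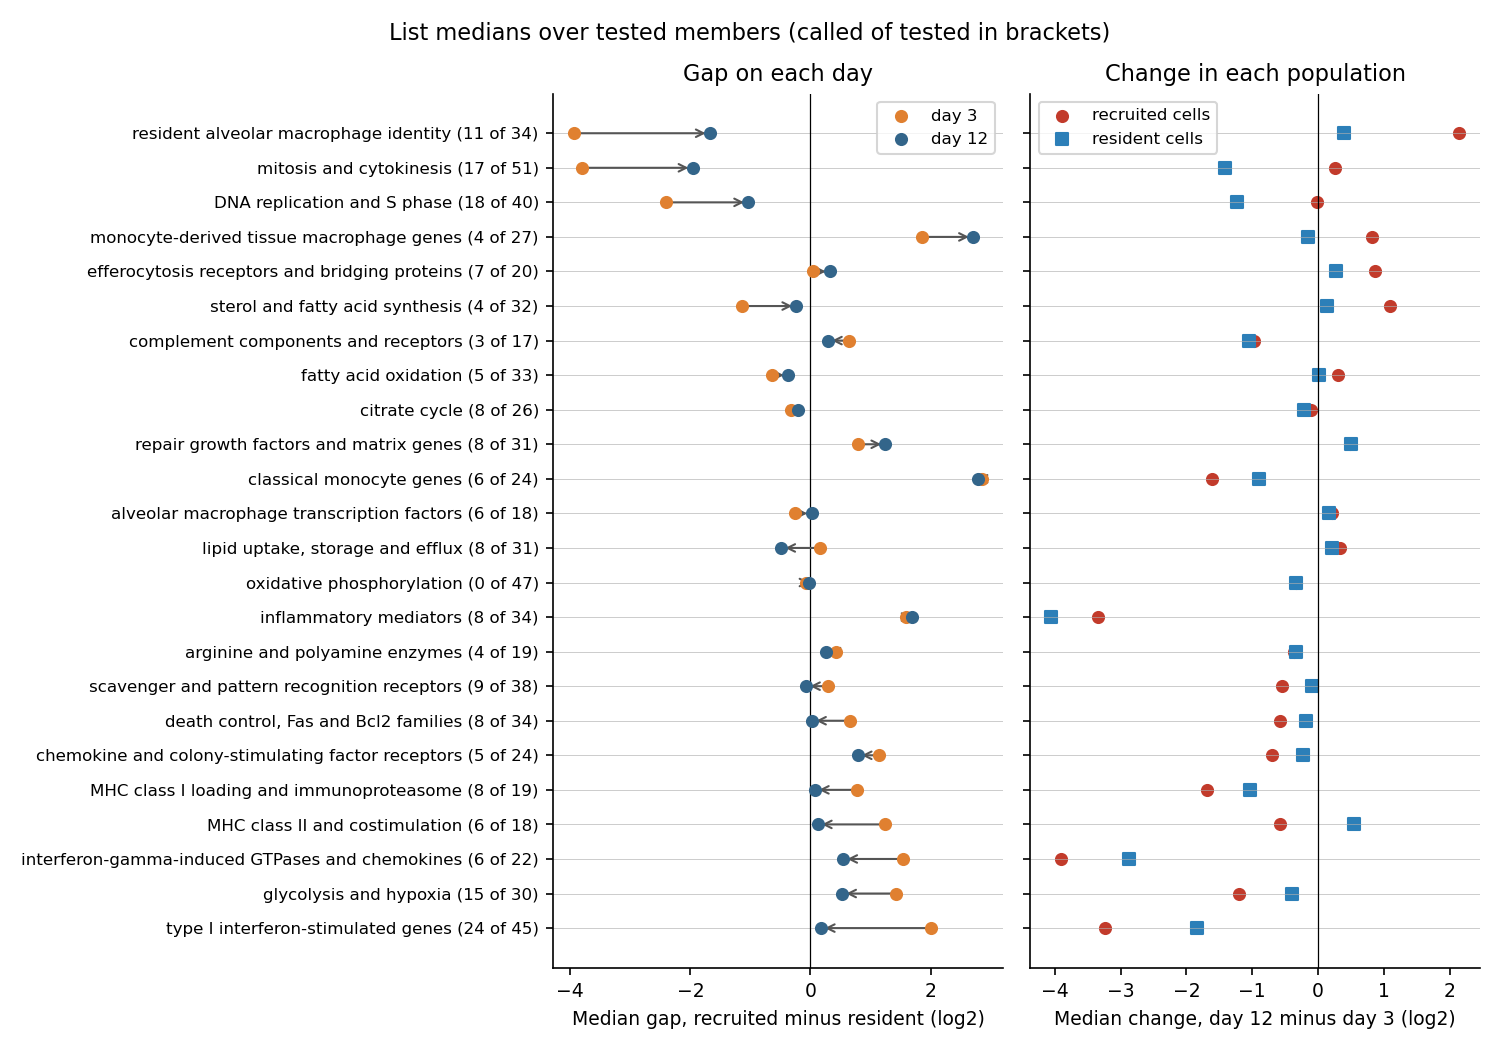
Medians over the tested members of 24 gene lists, with the number of called of tested members in brackets. On the left the arrow runs from the gap on day 3 to the gap on day 12 (log2), and on the right circles and squares give the change from day 3 to day 12 in recruited and resident cells (log2). The median gap of type I interferon-stimulated genes goes from 2.01 to 0.17.

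Most genes that mark resident alveolar macrophages rose in recruited cells. In resident cells 5 of them rose and 1 fell (11.3% and 12.9% of all tested genes did so). Of 34 tested members of this list, the gap rose in 11 and fell in none. In 10 of the 11 only the recruited cells had moved. Over all 34 the median gap went from -3.94 to -1.68, beside 0.05 and -0.00 over all tested genes. Recruited cells rose in 24 of the 34 (19.8% of all tested genes rose there), and 23 of the 34 were still lower in recruited cells on day 12 (14.7% of all). The 11 calls were 17 without recruited replicate 1 of day 3, and at the least 8 when another single library was left out.

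Mrc1 encodes the mannose receptor (chr2:14229392-14332057, plus strand, as for all positions in GRCm38 from the GENCODE annotation). It was at 89.1, 28.9 and 26.1 CPM in recruited cells on day 3 and at 605, 1030 and 952 on day 12. Resident cells had 1520, 1840 and 1410 CPM on day 3 and 1900, 2020 and 2120 on day 12. The recruited libraries of the 2 days were well apart, and all of them lay below every resident library. The gap of Mrc1 went from -5.05 to -1.22, a change of 3.83 ± 0.56 (SE, adjusted p = 0.000151).

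Pparg encodes the nuclear receptor that directs the resident program (chr6:115360951-115490399, plus strand). Its recruited level was 18.5, 25.1 and 11.5 CPM on day 3 and 64.2, 114 and 112 on day 12, against 148, 183 and 137 and then 159, 173 and 186 in resident cells. The groups of recruited libraries did not overlap, and the resident groups did. Its gap rose by 2.25 ± 0.46 (adjusted p = 0.00243), from -3.09 to -0.83, and the day 12 gap no longer passed (adjusted p = 0.057). Serpinb1a, a protease inhibitor of the serpin family (chr13:32842092-32851185, minus strand), was at 7.09, 2.59 and 1.02 CPM and then at 11.5, 50.9 and 52.1 in recruited cells. Resident cells had 124, 130 and 145 CPM and then 79.4, 106 and 119. The gap of Serpinb1a rose by 3.8 ± 0.77 (adjusted p = 0.00253), with recruited replicate 1 of day 12 well under the other two.

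Fabp4, a fatty acid carrier that PPARγ controls, went from 6.42, 3.53 and 2.99 CPM to 53.2, 20.9 and 17.9 in recruited cells, beside 99.1, 121 and 145 and then 86.8, 99.1 and 83.3 in resident cells. Here the day 12 library numbered 1 was the highest of its group. The gap rose by 3.25 ± 0.83 (adjusted p = 0.0138), and it missed the threshold without both day 12 libraries numbered 1 and with the block. Siglecf, the surface lectin commonly used to identify these cells, did not pass: its recruited level was 11.8, 2.36 and 1.82 CPM and then 20.5, 89.2 and 76.0, and its gap change was 2.09 ± 0.84 (adjusted p = 0.111). It passed when recruited replicate 1 of either day was left out. Ear1, an eosinophil-type ribonuclease with close copies in the genome, so that its counts are uncertain, did not pass either (1.89 ± 1.26, adjusted p = 0.352). For 12 of the 90 genes named by rule, Mrc1, Serpinb1a, Fabp4, Siglecf and Ear1 among them, the mean recruited level on day 3 was 2.52% to 4.66% of the resident level. On day 12 none was under 5%. The part that resident cells in the recruited gate could have in these values was not tested.

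Among 18 tested transcription factors of macrophages the gap rose in 3 and fell in 3. The rises were in Pparg, Irf4 and Bhlhe41, and the falls in Zeb2, Irf8 and Spi1, each under 0.75 in size. Irf4 (chr13:30749226-30766976, plus strand) was at 2.63, 0.628 and 1.24 CPM in recruited cells on day 3 and at 8.08, 23 and 13.9 on day 12, beside 12.9, 9.18 and 10.9 and then 5.98, 8.61 and 5.93 in resident cells. Its recruited libraries were under all resident libraries on day 3, and on day 12 replicates 2 and 3 were above all of them while replicate 1 was in their range. The gap went from -2.84 to 1.14, a change of 3.98 ± 0.61 (adjusted p = 0.000205). Bhlhe41, a repressor that restrains the growth of alveolar macrophages, reached the resident range, with 70.0, 53.9 and 31.0 CPM and then 201, 183 and 117 in recruited cells, against 165, 191 and 140 in resident cells on day 12. Its gap change was 1.66 ± 0.37 (adjusted p = 0.00427).

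**Figure D5:**
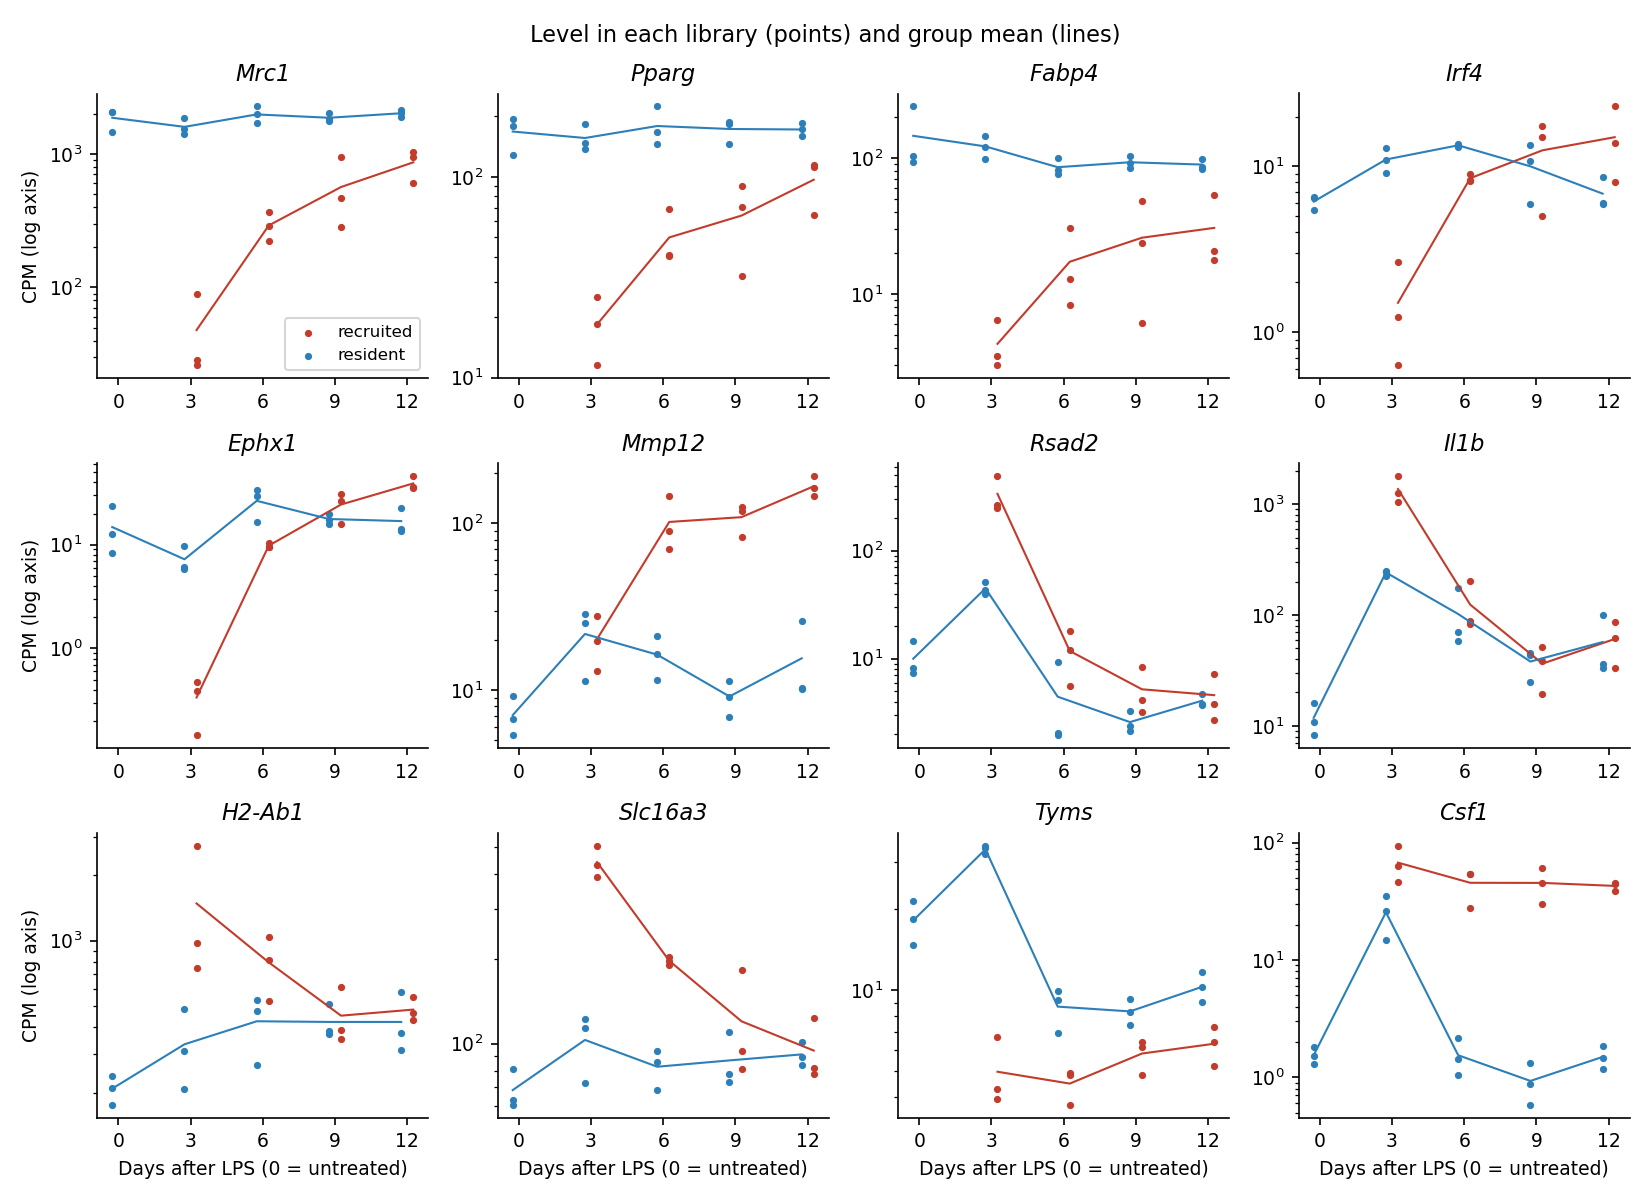
Level of 12 genes in CPM (log axis) over days after LPS, with 1 point per library and lines through the group means; day 0 is untreated resident cells. Mrc1, Pparg and Fabp4 rise in recruited cells toward the resident level, Rsad2 and Slc16a3 fall from a recruited peak, and Csf1 stays high only in recruited cells.

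Over type I interferon-stimulated genes the median gap went from 2.01 on day 3 to 0.17 on day 12. Cells make these antiviral and signalling proteins when type I interferon binds its receptor and a complex of transcription factors enters the nucleus. Of 45 tested members the gap fell in 24 and rose in none. On day 3 all 45 were higher in recruited cells (23.2% of all tested genes were), and on day 12 there were 10 (12.6% of all). Recruited cells fell in all 45 (19.5% of all tested genes fell there), and resident cells in 39 (12.9% of all). The median change was -3.23 in recruited and -1.84 in resident cells, and in 20 of the 24 both had passed. The calls were 17 without recruited replicate 2 of day 3 or replicate 3 of day 12, 27 without recruited replicate 1 of day 12, and 36 with the block.

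The promoters of 3 of the 24 genes are shown, those named by rule for the size of their gap change. All 3 hold a shortened core of the sequence this complex is known to bind. The searched core was GAAANNGAA on either strand, within the stretch from 250 bases before to 50 bases after each RefSeq start site. Sequences are from RefSeq, build GRCm38.p6, given 5′ to 3′ on the strand of the gene, with every match in capitals; overlapping matches run together.
Ifit3, chr19:34583344-34583465, plus strand: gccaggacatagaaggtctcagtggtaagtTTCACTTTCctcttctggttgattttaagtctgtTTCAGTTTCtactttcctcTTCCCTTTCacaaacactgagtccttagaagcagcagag
Isg15, chr4:156200846-156200926, minus strand: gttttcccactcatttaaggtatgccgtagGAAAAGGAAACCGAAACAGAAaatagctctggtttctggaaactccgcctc
Rsad2, chr12:26456533-26456601, minus strand: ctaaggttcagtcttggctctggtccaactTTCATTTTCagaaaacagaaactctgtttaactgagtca
Before the start site, Ifit3 and Isg15 hold 3 matches each and Rsad2 holds 1. Of the 27025 genes with a promoter in the table, 9.76% had a match. Of the 45 tested list members 34 had a promoter there, and 20 of these (58.8%) had a match: 12 of 18 (66.7%) with a called gap change and 8 of 16 (50.0%) without. A match describes the letters in this window, and the members were put on the list for their known response to interferon.

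Rsad2 encodes viperin, which blocks virus assembly (chr12:26442746-26456452, minus strand). It was at 267, 490 and 251 CPM in recruited cells on day 3 and at 7.27, 3.84 and 2.69 on day 12. Resident cells went from 43.1, 40.0 and 51.2 CPM to 3.82, 3.75 and 4.70. The populations were apart on day 3 and overlapped on day 12. The gap fell by 2.78 ± 0.74 (adjusted p = 0.0162), from 2.91 to 0.13, with recruited cells down by -6.22 and resident cells down by -3.44.

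Ifit3, which binds viral RNA complexes (chr19:34583531-34588731, plus strand), went from 83.9, 103 and 99.7 CPM to 2.51, 3.07 and 2.75 in recruited cells and from 19, 17.4 and 27.8 to 2.87, 5.22 and 3.86 in resident cells. Its day 3 groups were apart, and its day 12 groups overlapped. The gap change was -2.66 ± 0.68 (adjusted p = 0.0133). Isg15, a ubiquitin-like modifier (chr4:156199424-156200818, minus strand), went from 187, 277 and 213 CPM to 3.77, 2.86 and 1.89 in recruited cells and from 44.1, 35.3 and 65.5 to 4.33, 4.19 and 3.30 in resident cells, a gap change of -2.72 ± 0.73 (adjusted p = 0.0172). Without recruited replicate 3 of day 12 its adjusted p was 0.0527. The receptor chain Ifnar1 (chr16:91485238-91507441, plus strand) moved the same way with little spread, from 379, 400 and 389 CPM to 113, 93.7 and 96.9 in recruited cells and from 90.7, 84.2 and 89.8 to 60.9, 59.3 and 59.3 in resident cells. Its gap fell by 1.38 ± 0.17 (adjusted p = 1.87e-05). Not all members passed: Ifi44, at 17.7, 24.3 and 22.6 CPM in recruited cells on day 3, was under 1 CPM in every library of day 12, and its gap change was -1.43 ± 1.63 (adjusted p = 0.614).

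Among genes induced by interferon gamma the gap fell in 6 of 22 and rose in none, with 5 of the 6 moved in both populations. Batf2, a transcription factor of activated macrophages, went from 72.5, 124 and 71.7 CPM to 7.27, 8.24 and 5.31 in recruited cells and from 17.9, 20.9 and 27.4 to 4.46, 4.64 and 3.86 in resident cells. Its gap fell by 1.33 ± 0.33 (adjusted p = 0.00984). Cxcl9, a T cell attracting chemokine, fell steeply in both, from 242, 520 and 174 CPM to 6.2, 2.30 and 2.50 and from 142, 164 and 289 to 8.53, 6.40 and 5.2, and its gap change did not pass (-1.57 ± 0.76, adjusted p = 0.187). This list's count was 2 without recruited replicate 2 of day 3 and also without both day 12 libraries numbered 1, and 10 without recruited replicate 1 of day 3. It was 3 without resident replicate 1 of day 3 or replicate 2 of day 12.

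For peptide loading on MHC class I the gap fell in 8 of 19 tested members and rose in none, and 7 of the 8 had fallen in both populations. The immunoproteasome subunit Psmb8 (chr17:34197721-34201454, plus strand) went from 481, 447 and 407 CPM to 94.2, 127 and 125 in recruited cells and from 250, 195 and 255 to 110, 127 and 114 in resident cells. The populations were apart on day 3 and at the same level on day 12, with a gap change of -0.95 ± 0.22 (adjusted p = 0.00526). The peptide transporter Tap1 had a gap change of -0.88 ± 0.23 (adjusted p = 0.0154), with gaps of 1.33 and then 0.46. It missed the threshold without both day 12 libraries numbered 1, and with library size alone. The list gave 5 calls without those libraries and 3 with library size alone.

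For MHC class II and costimulation the gap fell in 6 of 18 and rose in none. Ciita is the master activator of class II genes (chr16:10480059-10528418, plus strand). It was at 90.0, 102 and 42.7 CPM in recruited cells on day 3 and at 17.6, 27.4 and 22.8 on day 12, while resident cells had 30.2, 20.5 and 29.1 and then 42.8, 27.7 and 28.3. Its recruited groups were apart and its resident groups overlapped, and the gap fell by 2.09 ± 0.42 (adjusted p = 0.0021). The class II chains H2-Aa, H2-Ab1 and H2-Eb1 had fallen in recruited cells, whereas Cd74 and Cd86 had passed only in resident cells. H2-Ab1 was at 2720, 974 and 751 CPM and then 548, 465 and 433 in recruited cells, with replicate 1 of day 3 far above the other two, and its gap change was -1.96 ± 0.57 (adjusted p = 0.0283). H2-Ab1 missed the threshold in 9 of 21 alternatives, among them the fit without that library. The 6 calls of this list were 2 without resident replicate 2 of day 3, without resident replicate 1 of day 12, and without both day 12 libraries numbered 1. They were 3 without resident replicate 3 of day 3, recruited replicate 1 of day 3, or recruited replicate 2 or 3 of day 12.

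Most proliferation genes were higher in resident cells on day 3 (23.5% of all tested genes were). They were 38 of 40 for DNA replication and 50 of 51 for mitosis, and most fell in resident cells by day 12. For DNA replication the gap rose in 18 of 40 tested members and fell in none. All 18 converged, and 14 of them had moved only in resident cells. They include the helicase subunits Mcm2 to Mcm7, the sliding clamp Pcna and the loading factors Cdc6 and Cdc45. Resident cells fell in 33 of the 40 (12.9% of all tested genes fell there), with a median change of -1.24, beside -0.02 in recruited cells. For mitosis and cytokinesis the gap rose in 17 of 51 and fell in none, all converging, 13 of them moved only in resident cells. Resident cells fell in 37 of the 51, and 46 of the 51 were still lower in recruited cells on day 12 (12.9% and 14.7% of all). The mitosis count was 36 with the block and 40 from the 12 libraries of days 3 and 12 alone, where the replication count was 28. It was 12 without recruited replicate 2 of day 3, and the replication count was at the least 15 with 1 library left out. Without both day 12 libraries numbered 1 the counts were 12 for mitosis and 14 for replication.

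Tyms makes thymidylate for DNA synthesis (chr5:30058202-30073617, minus strand). It was at 34.5, 32.1 and 33.9 CPM in resident cells on day 3 and at 11.7, 10.3 and 9.01 on day 12, beside 6.69, 3.93 and 4.30 and then 5.21, 6.42 and 7.32 in recruited cells. Resident libraries were above recruited ones on both days. The gap rose by 2.04 ± 0.28 (adjusted p = 6.06e-05), with resident cells changed by -1.70 and recruited cells by 0.35. Untreated resident cells had a mean of 18.2 CPM, between the 2 days.

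Racgap1, which positions the cleavage furrow (chr15:99620496-99651656, minus strand), was at 94.7, 87.1 and 97.0 CPM in resident cells on day 3 and at 34.6, 31.4 and 27.7 on day 12. Recruited cells had 9.73, 4.16 and 5.83 CPM and then 15.2, 11.4 and 11.1. The resident groups were apart, and so were the recruited ones, although only the resident change passed. The gap rose by 2.50 ± 0.51 (adjusted p = 0.00271). Anln, an actin-binding scaffold of the same furrow, is the member that passed only in recruited cells, from 6.15, 2.36 and 1.82 CPM to 12.3, 21.1 and 20.6, with a gap change of 2.98 ± 0.60 (adjusted p = 0.00241). Mki67, the usual marker of cycling cells, fell in both, from 533, 502 and 538 CPM to 169, 143 and 131 in resident cells and from 198, 204 and 134 to 76.9, 45.0 and 43.6 in recruited cells. Its gap change was 0.13 ± 0.56 (adjusted p = 0.911).

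Most glycolysis and hypoxia genes were higher in recruited cells on day 3 and fell there. The gap fell in 14 of 30 tested members and rose in 1, Pfkfb4. On day 3 26 of the 30 were higher in recruited cells (23.2% of all tested genes were). On day 12 there were 14 (12.6% of all). Recruited cells fell in 23 of 30 (19.5% of all) and resident cells in 13 (12.9% of all). The falls run along the pathway, from Hk1 and Hk3 through Gpi1, Aldoa, Tpi1, Pgk1 and Pkm to Ldha. The 15 calls were 10 without recruited replicate 3 of day 3.

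Slc16a3 exports lactate from glycolytic cells (chr11:120948480-120960868, plus strand). Recruited cells had 392, 431 and 505 CPM on day 3 and 123, 82.0 and 77.8 on day 12, and resident cells 122, 72.4 and 114 and then 101, 89.6 and 83.8. On day 12 replicate 1 of the recruited libraries was above all resident ones and replicates 2 and 3 below them, and the resident change did not pass (adjusted p = 0.662). Its gap fell by 2.06 ± 0.36 (adjusted p = 0.000581), from 2.10 to 0.04. Pfkfb3, the kinase that makes the activator of glycolysis (chr2:11471433-11554077, minus strand), went from 362, 523 and 508 CPM to 130, 103 and 119 in recruited cells and from 86.8, 102 and 104 to 74.7, 61.1 and 70.9 in resident cells. The populations stayed apart on both days, and the gap fell by 1.48 ± 0.18 (adjusted p = 2.01e-05). Bnip3, a hypoxia-induced protein of mitophagy, went from 59.7, 61.9 and 94.5 CPM to 21.8, 13.2 and 15 in recruited cells while resident cells held 9.78 to 13.1 CPM, a gap change of -2.08 ± 0.39 (adjusted p = 0.00102).

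Mitochondrial genes gave a split picture. In the citrate cycle the gap rose in 8 of 26 members and fell in none, all converging, with recruited cells moved in 6. Within recruited cells 8 of the 26 rose and 4 fell (19.8% and 19.5% of all tested genes did so). Within resident cells 0 rose and 9 fell (11.3% and 12.9% of all). The median change over the 26 was -0.11 in recruited and -0.22 in resident cells. Idh2, the mitochondrial isocitrate dehydrogenase, was at 53.2, 37.9 and 41.2 CPM and then 62.3, 69.3 and 68.8 in recruited cells, beside 94.9, 95.5 and 92.7 and then 68.4, 85.1 and 85.6 in resident cells. The populations were apart on day 3 and overlapped on day 12, and its gap rose by 0.84 ± 0.17 (adjusted p = 0.00162). The 8 calls were 2 without recruited replicate 2 of day 3 or of day 12, 4 without resident replicate 3 of day 3, and 5 without resident replicate 2 of day 3 or replicate 2 or 3 of day 12. In oxidative phosphorylation 0 of 47 members passed in edgeR, 3 had an unadjusted p under 0.05, DESeq2 gave 0 and the block 2. Recruited cells had fallen in 25 of those 47 (19.5% of all tested genes) and resident cells in 21 (12.9% of all). The medians were -0.34 and -0.33. Without recruited replicate 1 of day 12, 2 of the 47 gaps passed.

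In fatty acid oxidation the gap rose in 4 of 33 genes and fell in 1, a share near that of all tested genes (15.2% against 13.6%). Within recruited cells 16 of the 33 rose and 5 fell (19.8% and 19.5% of all tested genes did so). The 5 calls were 3 without recruited replicate 3 of day 3 and 9 with the block. Decr1, which degrades unsaturated fatty acids, was at 10.7, 5.58 and 6.99 CPM and then at 16.3, 17.7 and 18 in recruited cells, beside 20.6, 17.6 and 20.8 in resident cells on day 12, a gap change of 1.38 ± 0.27 (adjusted p = 0.00136).

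In sterol and fatty acid synthesis the gap rose in 4 of 32 and fell in none (12.5% against 13.6% of all tested genes), with only recruited cells moved. Recruited cells rose in 21 of the 32 (19.8% of all tested genes rose there). Dhcr7, the last step of cholesterol synthesis (chr7:143823145-143848410, plus strand), went from 25.3, 16.8 and 20.6 CPM to 85.5, 69.8 and 65.7 in recruited cells, beside 114, 108 and 153 and then 137, 83.8 and 90.7 in resident cells. The recruited groups were apart and the day 12 populations overlapped at their edge. Its gap rose by 2.08 ± 0.35 (adjusted p = 0.000504). Fasn, the fatty acid synthase, had recruited levels of 44.2, 29.2 and 29.6 CPM and then 124, 110 and 109, and its gap rose by 2.00 ± 0.41 (adjusted p = 0.00252). The 4 calls were 14 with the block, 10 without resident replicate 1 of day 12, and 2 without resident replicate 3 of day 3, resident replicate 2 or 3 of day 12, or recruited replicate 2 of day 3. Of 31 genes of lipid uptake, storage and efflux the gap rose in 4, among them Cd36, Fabp4 and Lpl, and fell in 4, among them the cholesterol exporter Abca1 and Dgat2. Cd36 and Abca1 each missed the threshold in 10 of 21 alternatives, the block among them. That count was 4 without both day 12 libraries numbered 1, and 5 without recruited replicate 2 of day 3 or resident replicate 3 of day 12.

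Most inflammatory mediators fell in both populations. Recruited cells fell in 26 of 34 tested members (19.5% of all tested genes) and resident cells in 28 (12.9% of all). The gap rose in 4 and fell in 4, 23.5% of the list against 13.6% of all tested genes. Nos2, the inducible nitric oxide synthase, fell from 1400, 3800 and 1950 CPM to 1.44, 1.68 and 2.87 in recruited cells and from 115, 55.6 and 80.1 to 0.0637, 0 and 0.168 in resident cells, and its gap change did not pass (-0.37 ± 2.06, adjusted p = 0.933). The monocyte attractant Ccl2 did not pass either (0.32 ± 1.12, adjusted p = 0.889). Il1b, a cytokine of acute inflammation, went from 1050, 1790 and 1270 CPM to 32.9, 62.3 and 87.0 in recruited cells and from 227, 246 and 251 to 101, 36.2 and 33.3 in resident cells. Its populations were apart on day 3 and overlapped on day 12. The gap fell by 2.41 ± 0.72 (adjusted p = 0.0316) but missed the threshold in 12 of 21 alternatives, 8 of them leaving out 1 library. The list count was 5 without recruited replicate 2 of day 3.

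Of the 83 diverging genes, 37 had moved only in recruited cells, 28 only in resident cells and 11 in both. Csf1 encodes the macrophage growth factor (chr3:107741048-107760469, minus strand). Resident cells had 35.3, 26.2 and 14.9 CPM on day 3 and 1.46, 1.84 and 1.18 on day 12, the latter close to their untreated mean of 1.54. Recruited cells had 63.0, 93.9 and 45.8 CPM and then 44.9, 44.5 and 39.1. The resident groups were far apart and the recruited change did not pass (adjusted p = 0.1). Its gap widened from 1.41 to 4.85, a change of 3.44 ± 0.50 (adjusted p = 0.000141).

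Itgam (chr7:128062640-128118491, plus strand) behaved alike, with 352, 329 and 514 CPM and then 16.8, 6.03 and 9.34 in resident cells, beside 2250, 3040 and 3780 and then 1440, 844 and 792 in recruited cells. Both populations fell, and the gap widened by 3.65 ± 0.73 (adjusted p = 0.00239). Its protein, CD11b, is one of the sort markers, so the gate fixes in part which cells were compared. Itgax, the gene of the other sort marker, went the converging way (chr7:128129547-128150657, plus strand): recruited cells rose from 306, 201 and 148 CPM to 1260, 1320 and 1350, although they were sorted as CD11c negative. Resident cells had 1620, 1210 and 1300 CPM and then 2320, 2190 and 2310, and the gap rose by 1.86 ± 0.29 (adjusted p = 0.000168). Thbs1, a matrix protein that bridges dying cells to phagocytes, fell in resident cells from 49.4, 37.5 and 28.2 CPM to 1.97, 0.221 and 0.448, against 167, 501 and 452 and then 379, 39.6 and 137 in recruited cells. Its gap widened by 4.40 ± 1.23 (adjusted p = 0.0219). Thbs1 missed the threshold without resident replicate 2 or 3 of day 12 or recruited replicate 1 of day 12, and in the fit of the 12 libraries alone. For 9 of the 90 named genes, Csf1, Itgam and Thbs1 among them, the resident mean on day 12 was 0.476% to 3.87% of the recruited mean, and for 11 on day 3 it was 2.15% to 4.78%. The part that recruited cells in the resident gate could have in these values was not tested.

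Ccl17, a chemokine for T cells, shows the reverse. It was at 18.1, 10.1 and 19.1 CPM in resident cells on day 3 and at 3.69, 1.91 and 2.18 on day 12, with recruited cells at 0.801 to 3.77 CPM throughout. Resident cells changed by -2.60 (adjusted p = 0.000355, edgeR). Recruited cells changed by 1.29, which did not pass (adjusted p = 0.055). The gap closed from -4.02 to -0.13, a change of 3.89 ± 0.70 (adjusted p = 0.000703).

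Genes of classical monocytes and of monocyte-derived macrophages gave mixed results. Of 24 monocyte genes the gap rose in 3 and fell in 3, and it stayed wide, with a median of 2.86 on day 3 and 2.78 on day 12. With the block 11 of the 24 passed. Ly6c2, a surface marker of classical monocytes whose counts may be shared with its close copy, fell in recruited cells from 1280, 1290 and 1790 CPM to 37.4, 20.7 and 18.6. It fell in resident cells from 54.6, 26.2 and 69.6 to 0.891, 0.147 and 0.112, and its gap change did not pass (1.17 ± 1.09, adjusted p = 0.525). Ccr2, the chemokine receptor of these cells, held 85.6 to 149 CPM in recruited cells on both days (gap change -1.09 ± 0.62, adjusted p = 0.263).

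Of 27 genes of monocyte-derived tissue macrophages the gap rose in 3 and fell in 1. The rises were in Mrc1, which is also on the resident identity list, in Cd81 and in Gpnmb. Mrc1 and Cd81 were lower in recruited cells on both days, with gaps of -1.22 and -1.89 on day 12. The gap of Gpnmb went from -0.06 to 2.13 (a change of 2.19 ± 0.67, adjusted p = 0.0353, edgeR). It missed the threshold in 11 of 21 alternatives. Cd81, a tetraspanin, rose in recruited cells from 17.5, 8.09 and 8.08 CPM to 29.5, 39.9 and 35.6, beside 161, 147 and 128 and then 109, 139 and 143 in resident cells, a gap change of 1.79 ± 0.39 (adjusted p = 0.00385). Apoe, the lipid carrier, rose in recruited cells from 1280, 981 and 1140 CPM to 19500, 4500 and 5960. Replicate 1 of day 12 was several times the other two. Resident cells had 51.9, 24.9 and 25.6 CPM and then 185, 54.2 and 76.7. Its gap change did not pass (1.52 ± 0.76, adjusted p = 0.207) and passed only with the block and with the run of library numbers as covariate. The complement chain C1qa was at 347, 188 and 336 CPM and then 1240, 89.1 and 100 in recruited cells, again with replicate 1 of day 12 apart (gap change 1.99 ± 1.71, adjusted p = 0.483). The monocyte-derived count was 10 with the block and 2 without both day 12 libraries numbered 1.

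Among repair and matrix genes the gap rose in 5 of 31 and fell in 3, and 13 passed with the block. Mmp12, the macrophage elastase (chr9:7344381-7369499, plus strand), was at the same level in both populations on day 3, with 27.8, 13 and 19.7 CPM in recruited and 25.4, 11.3 and 28.4 in resident cells. On day 12 recruited cells had 164, 192 and 145 CPM and resident cells 26, 10.3 and 10.1. The groups overlapped on day 3 and were well apart on day 12, and the gap rose by 3.54 ± 0.56 (adjusted p = 0.000349). Vegfa, the vascular growth factor, fell in resident cells from 4.99, 1.84 and 2.25 CPM to 0.127, 0.0736 and 0.448, with 63.7, 61.0 and 42.2 and then 25.1, 31.0 and 55.1 in recruited cells. Its gap change was 3.09 ± 1.14 (adjusted p = 0.0805), and it passed in DESeq2, with the block, with the run of library numbers as covariate and in the fit of days 3 and 12 alone.

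Among genes for the uptake of dying cells the gap rose in 6 of 20 tested members and fell in 1. Within recruited cells 11 of the 20 rose and 3 fell (19.8% and 19.5% of all tested genes did so). Pros1, protein S, bridges dying cells to the receptors of the TAM family (chr16:62854307-62929346, plus strand). It rose in recruited cells from 17.2, 13.1 and 17.9 CPM to 208, 178 and 176 and in resident cells from 153, 131 and 112 to 341, 307 and 319. Both populations rose, the recruited cells by 3.54 and the resident cells by 1.29, and the gap change was 2.25 ± 0.26 (adjusted p = 1.23e-05). Axl, a receptor of that family, had moved only in recruited cells (gap change 1.77).

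In the control of cell death the gap fell in 8 of 34 and rose in none. Bcl2l11, the pro-death protein BIM (chr2:128126038-128162547, plus strand), moved in resident cells alone. These had 63.4, 57.3 and 51.7 CPM on day 3 and 148, 137 and 135 on day 12, beside 112, 147 and 120 and then 132, 109 and 115 in recruited cells. The untreated resident mean was 126 CPM. The resident groups were far apart, and the gap fell by 1.38 ± 0.14 (adjusted p = 1.05e-05), from 1.14 to -0.24. Birc3, an inhibitor of apoptosis, fell further in recruited cells, from 154, 247 and 239 CPM to 64.5, 59.8 and 72.4, against 58.6, 82.1 and 69.5 and then 51.2, 40.5 and 51.5 in resident cells (gap change -1.15 ± 0.24, adjusted p = 0.00241). Tnfrsf1b, a receptor for tumour necrosis factor, fell only in recruited cells (gap change -1.25 ± 0.24, adjusted p = 0.00114). The list gave 13 calls with the block, and 5 with library size alone or with the libraries of days 3 and 12 alone.

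For scavenger and pattern recognition receptors the gap fell in 7 of 38, among them Tlr2, Tlr6, Cd14 and Nlrp3, and rose in 2, Mrc1 and Cd36. With the block 18 of the 38 passed. Clec4a1, a lectin, went from 261, 302 and 469 CPM to 25, 24.0 and 20.4 in recruited cells. In resident cells it went from 15.5, 15.8 and 24.5 to 2.55, 6.77 and 5.09, a gap change of -1.93 ± 0.48 (adjusted p = 0.0103, edgeR). The populations were apart on both days. For chemokine and colony-stimulating factor receptors the gap fell in 5 of 24 and rose in none. This count was 10 with the block, and 3 without resident replicate 1 of day 12 or recruited replicate 2 of day 3. C5ar1, the receptor of the complement fragment C5a, rose in resident cells from 220, 218 and 196 CPM to 338, 364 and 446, while recruited cells had 282, 335 and 373 and then 248, 275 and 262, a gap change of -1.19 ± 0.27 (adjusted p = 0.00423). Its recruited libraries lay above all resident ones on day 3 and below all of them on day 12.

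Among enzymes of arginine and polyamine use the gap rose in 1 of 19 and fell in 3. Gatm, which makes the creatine precursor from arginine, fell in recruited cells from 184, 140 and 146 CPM to 37.1, 24.4 and 22 while resident cells held 5.15 to 12.2 CPM, a gap change of -2.0 ± 0.47 (adjusted p = 0.00728). Srm, spermidine synthase, fell only in resident cells, from 57.7, 54.3 and 54.8 CPM to 23.9, 30.5 and 26.2, and its gap rose by 1.09 ± 0.24 (adjusted p = 0.00327). Arg1, arginase 1, had recruited levels of 662, 704 and 2180 CPM and then 198, 15.4 and 14.0, and its gap change did not pass (-1.44 ± 1.76, adjusted p = 0.642).

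Several of the largest changes lay outside these groups. Spon1, a secreted matrix protein (chr7:113765998-114043370, plus strand), had the largest fall among called genes that reached a mean of 20 CPM in any of the 4 groups. It was at 32.8, 54.9 and 38.4 CPM in recruited cells on day 3 and at 0.359, 0.349 and 0.427 on day 12, beside 2.69, 0.834 and 0.947 and then 0.509, 0.883 and 1.01 in resident cells. On day 3 all recruited libraries were above all resident ones, and on day 12 all recruited libraries were below all resident ones. That day 12 gap of -1.06 did not pass (adjusted p = 0.17, edgeR), with every day 12 library near or under 1 CPM. The gap fell by 5.85 ± 0.67 (adjusted p = 1.23e-05). Ifit1bl1, an interferon-induced gene with close copies, so that its counts are uncertain, went from 25.1, 34.1 and 30.3 CPM to 0.629, 0.838 and 0.488 in recruited cells and from 7.02, 3.17 and 6.69 to 2.80, 1.18 and 2.29 in resident cells. Its populations changed places, with a gap change of -4.08 ± 0.69 (adjusted p = 0.00043). Plekhg4 and Timp1 also fell by more than 3.5, and each missed the threshold in 9 or more of 21 alternatives.

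Ephx1, an epoxide hydrolase of detoxification (chr1:180976210-181020904, minus strand), crossed in the other direction. Recruited cells had 0.473, 0.393 and 0.146 CPM on day 3 and 45.8, 35.9 and 35.2 on day 12, and resident cells 9.78, 5.84 and 6.10 and then 22.7, 13.6 and 14.2. Recruited libraries were below all resident ones on day 3 and above all of them on day 12. Both gaps passed, and the change was 5.59 ± 0.61 (adjusted p = 1.23e-05). Gprc5c, an orphan receptor, rose from 0.811, 0.393 and 0.218 CPM to 16.9, 39.9 and 55.8 in recruited cells and from 18.8, 14.3 and 10.2 to 45.7, 36.8 and 47.7 in resident cells, so the populations met at a higher level (4.67 ± 0.76, adjusted p = 0.00043). H2-M2, a non-classical MHC class I gene, changed by a resident fall, from 89.6, 32.0 and 79.2 CPM to 5.22, 6.62 and 3.02, with 4.16 to 15.2 CPM in recruited cells on both days (gap change 4.30 ± 0.72, adjusted p = 0.000499). The largest rise, in Cspg4, rested on 1 library: recruited cells had 1.15, 0.314 and 0.0728 CPM on day 3 and 146, 5.58 and 5.49 on day 12. Its gap change of 5.84 ± 1.87 (adjusted p = 0.0435) missed the threshold in 12 of 21 alternatives.

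Marker genes of other cell types were set beside these results. Summed over 19 tested markers, T and NK cell genes were at 652 to 1306 CPM in recruited cells on day 3 and at 43.7 to 158 on day 12, beside 28.4 to 86.1 and 10.3 to 11 in resident cells, and 0 of the 19 gaps changed in edgeR (1 at an unadjusted p under 0.05, 1 in DESeq2). The 17 tested neutrophil markers summed to 1781 to 3176 CPM and then 414 to 533 in recruited cells and to 1241 to 2386 and then 385 to 527 in resident cells, and Elane had no count in any of the 12 libraries. Of these 17 the gap fell in 2, Cxcr2 and Fcgr4, and 1 passed without recruited replicate 2 of day 3 or replicate 3 of day 12. For 13 lung epithelial markers the sums were 63.0 to 83.7 and then 121 to 205 CPM in recruited cells and 272 to 446 and then 616 to 676 in resident cells. Only Cdh1, which alveolar macrophages also express and which is on the identity list, changed its gap (2.13 ± 0.54, adjusted p = 0.012), and 3 of the 13 passed without recruited replicate 1 of day 3. Of 6 endothelial and stromal genes only Vwf did, with 63.8, 64.5 and 31.4 CPM and then 387, 507 and 564 in recruited cells against 139, 130 and 92.8 and then 230, 201 and 172 in resident cells (gap change 2.45 ± 0.41, adjusted p = 0.000468), and 2 of the 6 passed without resident replicate 1 of either day. Of 12 dendritic cell genes 0 passed in edgeR (0 at an unadjusted p under 0.05, 0 in DESeq2, 1 with the block), and B cell, eosinophil and red cell lists had 1, 1 and 4 testable genes, with none called. In the stress list, immediate early and heat shock genes, 0 of 21 passed in edgeR (1 at an unadjusted p under 0.05, 0 in DESeq2, 2 with the block). The part of other cells in the gap changes was not tested.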

How the data were processed

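The authors deposited whole-number counts of reads for each Ensembl gene, not normalized, with 1 column per library; all 27 columns were used, and 0 columns of per-sample values were left out. Per the labels' protocols, polyadenylated RNA was made into libraries with a modified stranded kit and sequenced on an Ion Proton. The submitters' processing notes name the mouse build mm10 and, with no role for each, the tools HTSeq 0.6.0, STAR 2.4.0a, R 3.1.0 and DESeq2 1.4.5. For the strand setting and the release of the annotation nothing is given in the sources used here, so overlapping and antisense genes cannot be told apart. A second deposited table of counts outside genes was kept apart from the tests and library totals; in the 12 libraries 7.03% to 12.0% of reads lay outside genes.

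Genes were kept by filterByExpr (minimum count 10, minimum total 15). edgeR 4.0.16 in R 4.3.3 fitted 1 mean per group over all 27 libraries (9 groups of 3, 18 residual degrees of freedom) with TMM scaling, robust dispersions, the two-sided quasi-likelihood F test and Benjamini-Hochberg adjustment over all tested genes, with a threshold of 0.05 (called). Changes are log2 ratios ± SE from the F statistic. CPM are counts scaled to a common total with the TMM factors. A population is said to have moved where its own day 12 against day 3 test passed. The 4 contrasts share the 12 libraries. In a test on simulated data of 13473 genes, the gap change recovered 53 of 100 genes changed by 1 log2 unit and 88 of 100 changed by 2, with 3 false calls. Each simulated library was drawn independently with the fitted spread, so libraries of the same number shared no deviation. The changed genes were picked among those with a higher mean count. These figures hold for that setting and not for genes of low count.

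The genes tested, the gene lists and the tests were chosen with earlier results of these data known. Named genes are up to 3 per list by size of the gap change (called, at least 10 CPM in a group), the 5 largest falls and rises (at least 20 CPM), 3 per direction with opposite moves, a preset group of markers and every called member of the other-cell, stress and sort marker lists, 90 in all; some are not reported here. Members of a list named without values were picked after these were seen. Of 38124 gene identifiers 36345 matched a symbol; positions are from the GENCODE annotation of GRCm38, promoters from RefSeq.

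Whether equal replicate numbers pair libraries was checked from the data. In each of 12 pairs, a recruited and a resident library with the same day and number deviated together from their groups (across genes, r = 0.17 to 0.52), and each recruited library did so most with its own number. No label states this pairing. Alternatives were other scalings (DESeq2 size factors, library size alone), DESeq2 1.42.0, no count filter or a minimum count of 50, the 12 libraries alone, the replicate block, the run of library numbers in the file headers as covariate, each library left out, an adjusted p under 0.01 and a change of at least 1. Leaving out both day 12 libraries numbered 1 was added after seeing the data.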

Additional observations from a re-analysis of the deposited data

Results flagged for a closer look

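In 8 genes named by rule, recruited and resident cells moved in opposite directions between day 3 and day 12, each passing its own test, and the difference between the moves is the tested gap change. The gap fell in Scarf1, a scavenger receptor, by 2.81 on the log2 scale (a change of -2.81 ± 0.34, adjusted p = 1.87e-05, edgeR). Scarf1 went from 54.6, 64.7 and 72.8 CPM to 20.7, 17.9 and 17.5 in recruited cells and from 4.73, 2.67 and 4.20 to 10.4, 5.89 and 7.55 in resident cells. The gap change was -2.03 in Jarid2, a chromatin protein, and -1.98 in Cyp4f18, a cytochrome P450, with recruited cells down and resident cells up.

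In the other five the recruited cells went up and the resident cells down. The gap change was 2.43 in Dut, which keeps uracil out of DNA, with 2.90, 0.943 and 1.53 CPM and then 5.03, 3.84 and 4.27 in recruited cells and 18.9, 18.3 and 18.5 and then 8.28, 9.12 and 7.39 in resident cells. It was 2.00 in Kif23, a motor protein of cytokinesis, 2.21 in the cell cycle kinase Pkmyt1, 2.05 in Paqr4 and 2.37 in Ttc39a. Over all tested genes, 103 genes with a changed gap had moved in opposite directions.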

How the results depend on the processing

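The gap change passed in 1276 to 2032 genes when 1 library was left out, in 2955 with the replicate block and in 2819 with the run of library numbers as covariate. Converging, diverging and crossing genes were 1489, 206 and 1260 with the block. With the run covariate 1402 converged and 181 diverged. At an adjusted p under 0.01 they were 450, 19 and 334, and with a change of at least 1 they were 540, 43 and 318. Without the count filter 44 diverged and 180 had moved only in resident cells. With the run covariate 528 had moved only in resident cells, 797 in both and 108 in neither. Those moved in neither were 40 from the 12 libraries alone, and 43 without both day 12 libraries numbered 1, an alternative chosen after seeing the data. With 1 library left out, diverging genes were 41 to 75, genes changed in resident cells 1874 to 3518, and genes moved only in recruited cells 696 to 1167, only in resident cells 148 to 353, in both 237 to 483 and in neither 37 to 81. The cause of these shifts was not tested. Of 77 named genes with a called change, 53 passed in all 21 alternatives and 24 missed the threshold in at least 1 of them. None of the 77 reversed its direction, whereas the change of Arg1, C1qa, Ccl2, Ifi44, Mki67 and Nos2, which did not pass, had the other sign in at least 1 alternative. The depth of 11707563 to 17625541 counts limits genes near 1 CPM, where a group mean rests on few counts.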
